A study of Mus musculus with 10 samples.

Results

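The change in the liver's response to an acetaminophen overdose between 24 and 8 h after injection was measured with 4 of the 10 arrays of the series, 2 per time. Each 2-colour array set RNA from 1 treated mouse liver, labelled with Cy5, against RNA from 1 control mouse liver, labelled with Cy3. For every gene, the log2 ratio of treated over control on the 2 arrays at 24 h minus that on the 2 arrays at 8 h gave the change of response, and a dye effect that is constant over arrays cancels in it. A positive change means that treated stood higher relative to control at 24 h than at 8 h. Treated mice were female C57BL/6 mice aged 8 weeks, fasted for 24 h and then given 350 mg/kg of acetaminophen in phosphate-buffered saline into the peritoneum. Control mice shared the strain, sex, age and fast and received the saline alone, so the fast is common to all groups. Whether food was returned after injection, and the hour of day, are not given in the sources used here. Arrays carry the number of their treated mouse, which gives arrays 1 and 3 at 24 h and arrays 2 and 3 at 8 h. The labels use mouse numbers again at each time, but mice were killed for sampling, so each of the 4 arrays compares its own pair of animals.

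Acetaminophen is harmless at low dose, but in overdose the liver's cytochrome P450 enzymes turn it into a reactive product that uses up glutathione and binds mitochondrial proteins. Hepatocytes around the central veins, which hold most of these enzymes, die within hours, while those near the portal tracts largely survive. Early on, stressed hepatocytes switch on immediate early, integrated stress and antioxidant genes, and later the liver recruits leukocytes and starts to repair. Because each ratio has 2 sides, a change of response can come from the treated livers, from the control livers or from both. The 2 channels were therefore also compared on their own between 24 and 8 h. A change is said to lie in the treated channel when that channel carried at least 2/3 of it, in the control channel when that one did, and otherwise in both. This is a rule of size and no test, and a channel so named need not be called.

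Of 23979 genes tested, 1509 (6.29%) had a change of response at an adjusted p under 0.05 (limma, Benjamini-Hochberg over all genes, two-sided). The ratio was higher at 24 h than at 8 h in 592 genes (2.47%) and lower in 917 (3.82%). All counts of called list members given below are to be read beside these shares. Changes of at least 2-fold were made by 278 of the higher and 603 of the lower genes, and of at least 4-fold by 29 and 135. In the 1507 of these genes with a value on all 4 arrays, both 24 h arrays lay on the same side of both 8 h arrays, which 51.5% of all genes with 4 values also did. The treated channel alone was called in 2478 genes (10.3%), with 1234 higher (5.15%) and 1244 lower (5.19%) at 24 h. The control channel was called in 162 genes (0.676%), with 102 higher (0.425%) and 60 lower (0.25%). Of the 1509 changes, 1240 (82.2%) lay in the treated channel, 219 in both channels and 50 in the control channel. The treated channel was itself called in 1009 of the 1240, and the control channel in 18 of the 50. Of the 219, the treated channel was called in 42 and the control channel in 11.

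The falls and rises came from different starting points, as the plot of the response at 24 h against that at 8 h shows. Among the 917 lower genes, 482 had a called reduction at 24 h and no called response at 8 h, with a median change of -1.26. Another 253 were not called at 24 h and raised in treated livers at 8 h, 67 were reduced at 24 h and raised at 8 h, and 63 were reduced at both times and further so at 24 h. Among the 592 higher genes, 282 were not called at 24 h and reduced at 8 h, 186 were raised at 24 h with no called response at 8 h, and 72 were raised at 24 h and reduced at 8 h. Called responses at 24 h numbered 911 higher (3.8%) and 1704 lower (7.11%), and at 8 h 1283 higher (5.35%) and 1818 lower (7.58%). These responses share their arrays with the change and say only where each change started and ended.

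**Figure D1:**
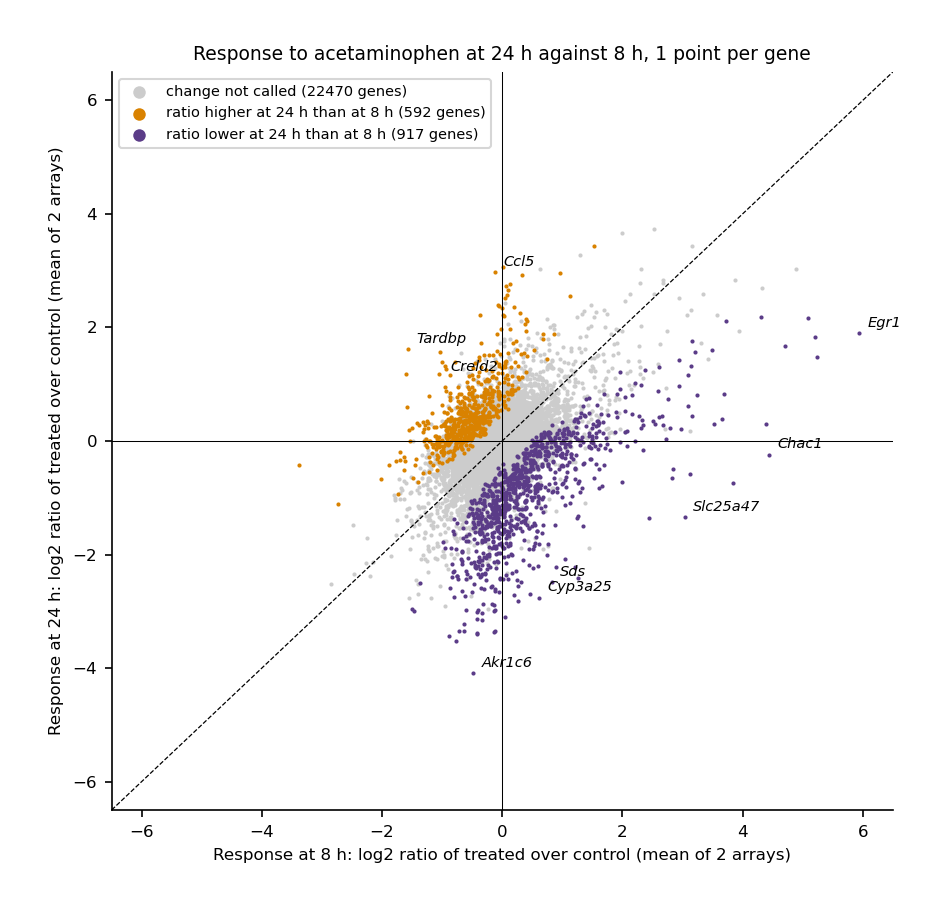
Each point is 1 of 23979 genes, with the mean log2 ratio of treated over control on the 2 arrays at 24 h (vertical) against that at 8 h (horizontal), and the dashed line marks equal responses. Orange points mark the 592 genes higher at 24 h and purple points the 917 lower ones. Chac1 lies far to the right at -0.24 against 4.45, and Akr1c6 at the bottom at -4.09 against -0.48.

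The 4 arrays were scanned on 2 days, each day holding 1 array of each time, and no slide held both times. The change within day 1 and that within day 2 correlated across genes at r = 0.626, and 1507 of the 1509 called changes had the same sign on both days (the other 2, Agxt and Sult1a1, lack a value on 24 h array 1). Ratios of the 2 arrays correlated across genes at 0.757 at 24 h and 0.798 at 8 h; genes are not independent replicates. The 14 tested of 15 abundant hepatocyte genes were well above background in every group, which the probe filter makes likely for any tested gene. Their mean log2 level per array and channel was 14.63 to 15.83, beside 8.49 to 8.55 over all genes. The call depended on the normalization: with a plain median centring of each array in place of the intensity-dependent loess fit 2 genes were called, and with an added scaling between arrays 20. Among 206 named genes with a called change, 86 kept the call when any 1 of the 4 arrays was left out.

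Immediate early genes, which encode short-lived transcription factors and signalling brakes, included several of the steepest falls. Of 39 tested members of a list of 40, 18 (46.2%, beside 3.82% of all genes) had a lower ratio at 24 h than at 8 h. The median change was -1.17, beside 0.0024 over all genes, and the median response was 0.28 at 24 h and 1.63 at 8 h. In the treated channel 21 members fell and 2 rose, while the median control-channel change was -0.01. Of the 18 changes, 17 lay in the treated channel and 1, that of Klf10, in both.

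The transcription factor gene Egr1 had log2 ratios of 1.70 and 2.10 at 24 h, against 6.34 and 5.55 at 8 h. Its change was -4.04 ± 0.37 (SE, n = 2 arrays per time, limma adjusted p = 0.00141), made of -4.11 in the treated channel and -0.07 in the control channel. Treated livers thus stood above control livers at both times, by far less at 24 h. Rgs16, a brake on G protein signalling, had ratios of -0.75 and -0.74 at 24 h, against 4.06 and 3.62 at 8 h. Its change was -4.59 ± 0.36 (adjusted p = 0.00116), with the treated channel at -3.59 and the control channel, not called, at 0.99. Fos, a subunit of the AP-1 factor, had ratios of 0.07 and 0.54 at 24 h, against 4.90 and 3.88 at 8 h. Its change of -4.08 ± 0.59 (adjusted p = 0.0076) lay in the treated channel at -3.64, and the call was lost without 8 h array 2 (adjusted p = 0.0598). Jun, the AP-1 partner of Fos, had ratios of 2.20 and 2.13 at 24 h, against 5.20 and 4.98 at 8 h, a change of -2.92 ± 0.24 (adjusted p = 0.00119) with the treated channel at -3.42. Jun and Egr1 remained raised at 24 h, whereas Rgs16 and Fos had no called response then. Ifrd1 changed by -3.76, Csrnp1 by -2.18, Ier2 by -1.88 and the phosphatase gene Dusp1 by -2.07, each in the treated channel. Without 1 array at a time, the number of lower members was 13 to 16, with 13 without 8 h array 2.

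Many immediate early genes are known to answer to cyclic AMP and stress kinases through a cyclic AMP response element, so the 250 bases before the start of each gene were searched on both strands for the core of that element (TGACG) and for its full palindrome (TGACGTCA), which contains the core. The sequences are RefSeq promoters on GRCm38.p6, written 5′ to 3′ on the gene's own strand with the motif in capitals. Fos is shown for its 2 cores at positions -129 to -125 and -66 to -62 before the start, and Btg2 for its palindrome at positions -166 to -159.
Fos, chr12:85473640-85473889, plus strand: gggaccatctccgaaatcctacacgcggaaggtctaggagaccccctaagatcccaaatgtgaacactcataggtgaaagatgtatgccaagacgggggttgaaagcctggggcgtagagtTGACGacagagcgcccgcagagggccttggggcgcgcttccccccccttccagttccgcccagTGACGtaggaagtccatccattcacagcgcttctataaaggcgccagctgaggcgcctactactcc
Btg2, chr1:134079156-134079405, minus strand: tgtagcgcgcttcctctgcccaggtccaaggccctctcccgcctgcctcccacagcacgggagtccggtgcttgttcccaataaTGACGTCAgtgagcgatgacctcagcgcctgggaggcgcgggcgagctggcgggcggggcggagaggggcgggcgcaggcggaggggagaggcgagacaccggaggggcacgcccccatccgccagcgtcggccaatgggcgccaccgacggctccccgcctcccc
The core was in 24 of 40 promoters of 31 immediate early genes found in the table, against 17.8% of all 32851 promoters. It was in 24.7% of 835 promoters of genes lower at 24 h and in 25.5% of 530 promoters of genes higher at 24 h, so its share was much the same in the 2 directions. The palindrome was in 4 of the 40 immediate early promoters, against 1.55% of all, and in 3.11% of promoters of lower genes and 1.32% of promoters of higher genes. A match of letters is not a binding site.

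Genes of the integrated stress response, which the factors ATF4 and CHOP switch on when amino acids run short or proteins misfold, fell with them. Of 27 tested members of a list of 28, 11 were lower at 24 h (40.7%) and 1 was higher (3.70%). Over all genes 3.82% were lower and 2.47% higher. The median change was -0.92, or -0.38 under scaling between arrays. The median response was 0.17 at 24 h and 1.21 at 8 h. Without 1 array at a time, 9 to 11 members were lower.

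Chac1, which breaks down glutathione inside the cell, had the largest fall of all genes tested. Its ratios were -0.09 and -0.39 at 24 h, against 4.71 and 4.19 at 8 h, a change of -4.69 ± 0.41 (limma adjusted p = 0.00133) or 25.7-fold. The treated livers had log2 levels of 8.06 and 7.50 at 24 h, against 12.81 and 12.56 at 8 h, while the control livers had 8.14 and 7.89 at 24 h, against 8.11 and 8.38 at 8 h. Only the treated livers at 8 h stood apart. The probe lies at chr2:119179990-119180049 on mm9, per the file headers. Herpud1, which helps to clear misfolded proteins from the endoplasmic reticulum, had ratios of -0.76 and -0.67 at 24 h, against 1.96 and 2.02 at 8 h, and so was below control at 24 h and above it at 8 h. Its change was -2.71 ± 0.16 (adjusted p = 0.000557), with the treated channel at -2.22. Ddit3, which encodes CHOP, changed by -2.03 ± 0.28 (adjusted p = 0.00644); its treated channel was lower at 24 h by -2.90 and its control channel by -0.87, both called. Ddit4, a brake on growth signalling, changed by -2.49 and Gdf15, a stress hormone, by -2.13, both in the treated channel.

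Trib3, an inhibitor that ATF4 and CHOP induce, differed from these in the channel that moved. Its ratios were 0.61 and 1.05 at 24 h, against 3.85 and 3.52 at 8 h, a change of -2.86 ± 0.30 (adjusted p = 0.00241). The control livers held 10.21 and 9.97 log2 units at 24 h, against 8.27 and 8.44 at 8 h, so the control channel was higher by 1.74 (adjusted p = 0.00661). The treated channel was lower by -1.12 (adjusted p = 0.0522), which misses the threshold. Nupr1, a small stress-induced chromatin protein, went the other way, with ratios of 1.32 and 1.30 at 24 h, against 0.28 and 0.02 at 8 h, and a change of 1.16 ± 0.21 (adjusted p = 0.0179). The call of Nupr1 was lost without each of the 4 arrays in turn.

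Endoplasmic reticulum chaperone genes belong to another arm of the response to misfolded proteins. Of 25 tested, 3 were higher and 1 was lower at 24 h, and 21 were not called. The median change was 0.46, or 0.20 under scaling between arrays, with a median response of 0.00 at 24 h and -0.59 at 8 h. Creld2, a secreted chaperone, had ratios of 1.49 and 1.66 at 24 h, against -0.67 and -1.39 at 8 h. Its change of 2.60 ± 0.25 (adjusted p = 0.00169) lay in both channels, 1.52 in the treated and -1.09 in the control channel, the first of them called. Sdf2l1 changed by 1.48 in both channels and Pdia4 by 0.83 in the treated channel, while P4hb, a protein disulfide isomerase, changed by -0.78 in the treated channel. No channel of Sdf2l1 or Pdia4 was itself called. The central chaperone gene Hspa5 was raised at both times, at 1.85 at 24 h and 1.40 at 8 h, and its change of 0.45 was not called (adjusted p = 0.565). The calls of Sdf2l1, Pdia4 and P4hb were each lost without 8 h array 2, those of Sdf2l1 and Pdia4 also without 24 h array 3, and the number of higher members was 1 without either of these arrays and 6 without 24 h array 1. The calls of Pdia4 and P4hb were also lost without 8 h array 3, and that of P4hb without 24 h array 1.

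The promoters of Chac1 and Creld2 show the known elements of the 2 arms. Chac1 has 1 match of the C/EBP-ATF element through which ATF4 acts (TGATGNAA) on the minus strand at positions -193 to -186. Creld2 has 1 match of the endoplasmic reticulum stress element (CCAAT and CCACG with 9 bases between), also on the minus strand, at positions -126 to -108.
Chac1, chr2:119350992-119351241, plus strand: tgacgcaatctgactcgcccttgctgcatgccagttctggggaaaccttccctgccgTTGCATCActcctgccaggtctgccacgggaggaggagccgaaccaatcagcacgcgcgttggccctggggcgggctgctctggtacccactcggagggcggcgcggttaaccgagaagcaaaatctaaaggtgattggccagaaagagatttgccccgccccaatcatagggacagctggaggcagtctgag
Creld2, chr15:88819396-88819645, plus strand: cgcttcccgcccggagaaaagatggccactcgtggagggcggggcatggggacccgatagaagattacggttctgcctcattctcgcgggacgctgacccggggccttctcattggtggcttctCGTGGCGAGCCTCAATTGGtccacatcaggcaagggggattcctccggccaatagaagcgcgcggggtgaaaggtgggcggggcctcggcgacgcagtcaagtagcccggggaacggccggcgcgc
The first motif was in 9 of 30 promoters of the integrated stress list (30.0%), against 3.45% of all promoters, and among the called members in those of Chac1, Herpud1 and Nupr1. The second was in 9 of 25 promoters of the chaperone list (36.0%), against 0.113% of all, and among the called members in that of Creld2. Both lists were chosen as members of these arms, so their high shares are no separate result about the change. Of all promoters of genes lower at 24 h the first motif was in 2.51%, and of those of genes higher at 24 h in 1.13%. For the second motif these were 0 of 835 and 1 of 530 promoters.

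Targets of p53, the damage-sensing transcription factor, fell in part. Of 25 tested, 11 were lower (44.0%) and 2 were higher (8.0%) at 24 h, beside 3.82% and 2.47% over all genes. They had a median change of -0.53. That median was -0.09 under scaling between arrays and -0.30 with no filter on dim probes. Plk3, a stress kinase, had ratios of -0.27 and -1.04 at 24 h, against 3.08 and 2.58 at 8 h, a change of -3.49 ± 0.31 (limma adjusted p = 0.00139) with the treated channel at -3.88. Trp53inp1 had ratios of 0.37 and 0.22 at 24 h, against 3.71 and 3.33 at 8 h, a change of -3.22 ± 0.17 (adjusted p = 0.000523) with the treated channel at -2.98. Gadd45a, a growth arrest gene, changed by -3.27, and Btg2, an antiproliferative gene, by -2.58, both in the treated channel. Cdkn1a, the cell cycle inhibitor p21, had ratios of 2.02 and 2.20 at 24 h, against 4.09 and 3.37 at 8 h, and its change of -1.62 ± 0.38 (adjusted p = 0.047) lay in both channels. Of its 3 probes 1 was called, and their changes ran between -1.62 and -0.04. That call was lost without each of the 4 arrays in turn, and its sign turned to 0.29 under scaling between arrays. The cell death genes Bax and Aen rose, by 1.31 ± 0.16 (adjusted p = 0.00377) and 1.07 ± 0.10 (adjusted p = 0.00145), both in the treated channel. Bax had ratios of 0.75 and 0.60 at 24 h, against -0.79 and -0.50 at 8 h. Among other Bcl2 family genes, Bak1 rose by 1.66, and Bnip3 and Bbc3 changed by -2.15 and -1.11, again in the treated channel. The call of Bnip3 was lost when any array but 8 h array 3 was left out, and that of Bbc3 without 8 h array 2 or 24 h array 3; the 3 probes of Bnip3 ran between -2.15 and -0.70, with 2 called. Without 1 array at a time, 6 to 10 p53 targets were lower, with 6 without 8 h array 2.

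Antioxidant genes under NRF2, the sensor of reactive chemicals, were mixed. Of 38 tested, 9 were lower (23.7%) and 1 was higher (2.63%) at 24 h than at 8 h, beside 3.82% and 2.47% over all genes. In treated livers 19 were raised and 7 reduced at 24 h, against 19 raised and 0 reduced at 8 h. The median change was -0.19, which turned to 0.29 under scaling between arrays. Hmox1, which breaks down heme, had ratios of 1.85 and 1.66 at 24 h, against 2.94 and 3.38 at 8 h, a change of -1.40 ± 0.26 (adjusted p = 0.0208) in the treated channel. Srxn1, which repairs oxidised peroxiredoxins, had ratios of 3.37 and 2.30 at 24 h, against 2.41 and 2.96 at 8 h, with no called change (0.15 ± 0.46). Gstm3, a glutathione transferase, was below control at 24 h, at -1.48 and -1.48, and above it at 8 h, at 0.78 and 0.98, a change of -2.36 ± 0.29 (adjusted p = 0.00433) in the treated channel. Txn1, thioredoxin, changed by 0.76 and Osgin1, an oxidative stress gene, by -1.93, both in the treated channel. Of the 4 metallothionein and zinc genes, Slc30a1, a zinc exporter, was lower by -1.05 ± 0.25 (adjusted p = 0.0466). Mt2 had ratios of 3.83 and 2.23 at 24 h, against 5.04 and 4.73 at 8 h, Mt1 3.68 and 2.00 at 24 h, against 4.0 and 3.75 at 8 h, and neither change was called; Slc39a14 changed by -0.68 without a call. The metallothionein median of -1.04 turned to 0.81 under scaling between arrays. The call of Txn1 was lost without each of the 4 arrays in turn, that of Slc30a1 when any array but 8 h array 3 was left out and that of Osgin1 when any array but 24 h array 1 was left out. Lower NRF2 genes numbered 4 without 24 h array 3 and 5 without 8 h array 3.

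**Figure D2:**
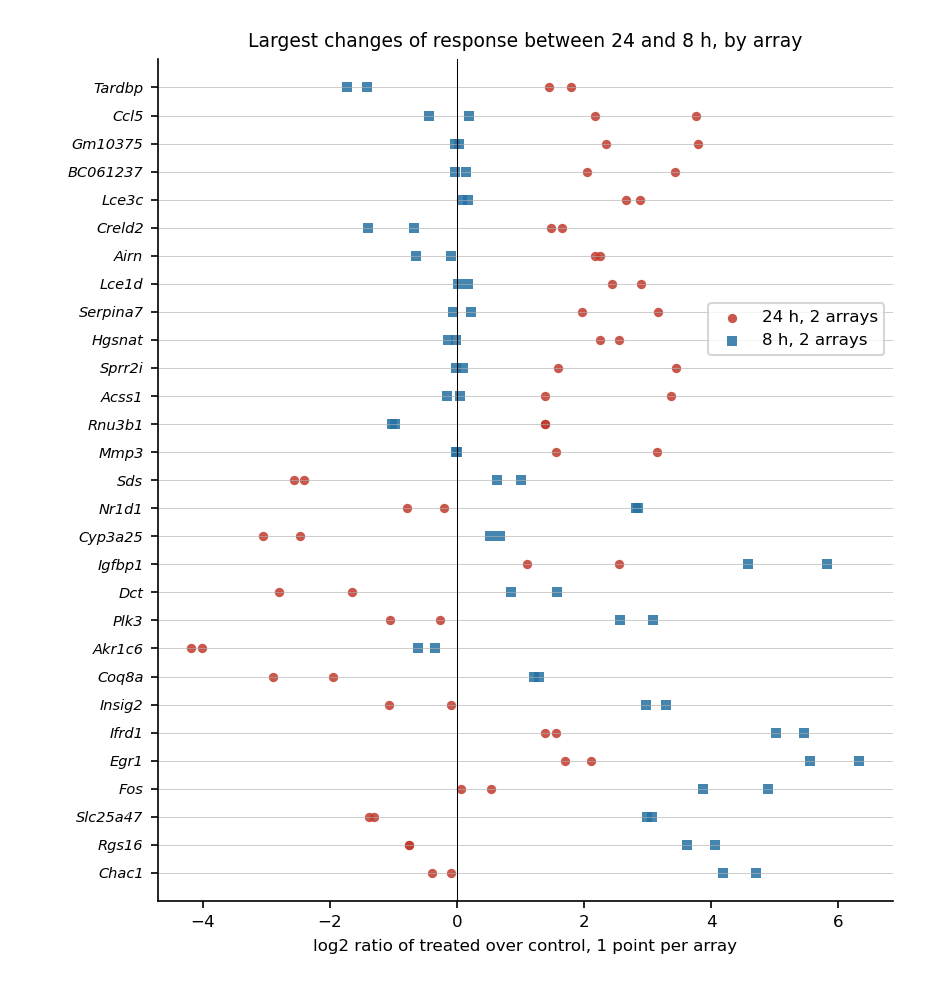
Log2 ratio of treated over control on each of the 4 arrays (red circles 24 h, blue squares 8 h) for genes with the largest rises (top) and the largest falls (bottom) among called genes. In each gene shown the 2 arrays of 1 time lie apart from the 2 arrays of the other, by which these genes were chosen.

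In 139 genes the change crossed 0, with called responses of opposite sign at the 2 times. The largest such fall was that of Slc25a47, a mitochondrial carrier of hepatocytes, with ratios of -1.38 and -1.30 at 24 h, against 3.08 and 3.00 at 8 h. Its change was -4.38 ± 0.19 (limma adjusted p = 0.000451), with -5.09 in the treated and -0.71 in the control channel, and its probe lies at chr12:110094661-110094720 on mm9. Coq8a, needed to make coenzyme Q, had ratios of -1.95 and -2.88 at 24 h, against 1.22 and 1.29 at 8 h, and Lpin1, a fasting-induced phosphatase of lipid synthesis, -1.81 and -2.64 at 24 h, against 0.67 and 1.12 at 8 h. Coq8a changed by -3.67 ± 0.27 (adjusted p = 0.000854) in the treated channel and Lpin1 by -3.12 ± 0.34 (adjusted p = 0.00269) in both. The second probe of each showed less, -0.65 for Coq8a and -0.54 for Lpin1, and was not called. In the other direction, Tardbp, an RNA-binding protein gene, had ratios of 1.79 and 1.44 at 24 h, against -1.41 and -1.72 at 8 h. It changed in the treated channel, by 3.18 ± 0.24 (adjusted p = 0.000969) on 1 of 3 probes, and the change of the 3 ran between -0.16 and 3.18.

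Falls of metabolic genes were the broadest part of the change, and the median response of most metabolic lists was close to 0 at 8 h. Of 28 periportal and urea cycle genes, which mark hepatocytes near the portal tracts, 18 were lower at 24 h (64.3%, beside 3.82% of all genes). Their median change was -1.90, with a median response of -1.55 at 24 h and -0.11 at 8 h, and the median channel changes were -1.68 in treated and 0.02 in control livers. Of 45 genes of amino acid breakdown 29 were lower, with a median change of -1.45. Of 25 pericentral genes, 7 were lower, with a median change of -0.52 and a median response of -0.95 at 24 h and -0.48 at 8 h; the difference between the periportal and pericentral lists was not tested. Lower pericentral genes numbered 3 without 8 h array 2 and 2 without 24 h array 3 or 8 h array 3, and without 24 h array 3 their median change was -0.09. In whole liver RNA, fewer cells of a type and less RNA per cell cannot be told apart.

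The urea cycle enzymes fell together. Otc, which makes citrulline, had ratios of -2.67 and -3.06 at 24 h, against -0.10 and -0.25 at 8 h, a change of -2.69 ± 0.26 (limma adjusted p = 0.00166) with the treated channel at -2.39. Asl had ratios of -2.03 and -2.55 at 24 h, against 0.40 and 0.06 at 8 h, a change of -2.52 ± 0.21 (adjusted p = 0.00122). Cps1, the entry enzyme, changed by -2.17, Ass1 by -2.02 and Arg1 by -2.64, all in the treated channel. Sds, serine dehydratase, was 1 of the genes whose response turned round, with ratios of -2.56 and -2.41 at 24 h, against 1.01 and 0.64 at 8 h. Its change was -3.31 ± 0.20 (adjusted p = 0.000557), with -3.27 in the treated and 0.04 in the control channel. Aldh6a1 of valine breakdown changed by -2.60 (-0.88 and not called on its other probe) and Gls2, the liver glutaminase, by -2.96, both in the treated channel. In the methionine cycle 14 of 24 genes were lower, among them Mat1a, which makes the methyl donor, at -2.88 and -2.76 at 24 h, against 0.47 and 0.06 at 8 h. The change of Mat1a was -3.08 ± 0.37 (adjusted p = 0.0038), with the treated channel at -3.64. Bhmt changed by -2.59 and Cth, which makes cysteine, by -2.56. Without 8 h array 2, the lower genes numbered 11 in the periportal list, 15 in amino acid breakdown and 5 in the methionine cycle (7 without 24 h array 3 and 9 without 8 h array 3), and the calls of Cps1 and Ass1 were lost.

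Genes of glucose production fell in part. Of 22 gluconeogenesis and glycogen genes 12 were lower (54.5%, beside 3.82% of all genes). They had a median change of -1.01 over the list and a median treated-channel change of -1.32. The lower genes numbered 7 without 8 h array 2. Pck1, the rate-limiting enzyme, had ratios of -3.31 and -3.13 at 24 h, against -0.61 and -0.67 at 8 h, so it was reduced at both times and further at 24 h, by -2.58 ± 0.22 (adjusted p = 0.00123). Fbp1 changed by -2.76 and Pygl, glycogen phosphorylase, by -3.22, both in the treated channel. G6pc changed by -2.46 in both channels, and its call was lost without 8 h array 2. Igfbp1, a fasting-induced binding protein for insulin-like growth factors, had ratios of 2.56 and 1.10 at 24 h, against 5.83 and 4.59 at 8 h, a change of -3.38 ± 0.73 (adjusted p = 0.0356). That change lay in the treated channel at -2.38, with the control channel at 1.01, and its call was lost without 8 h array 2 or 24 h array 3.

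Drug-metabolising genes, which include the enzymes that activate and clear acetaminophen, fell as well. Of 34 cytochrome P450 genes 20 were lower (58.8%) and 1 was higher (2.94%), beside 3.82% and 2.47% over all genes. The median change was -1.17, with a median response of -1.09 at 24 h and 0.13 at 8 h. Without 8 h array 3, 13 were lower. Cyp3a25 had ratios of -2.47 and -3.05 at 24 h, against 0.69 and 0.53 at 8 h, a change of -3.37 ± 0.34 (limma adjusted p = 0.00205) with -2.76 in the treated and 0.61 in the control channel. Cyp2c29 had ratios of -2.27 and -2.56 at 24 h, against -0.04 and -0.03 at 8 h, a change of -2.38 ± 0.17 (adjusted p = 0.000854). Cyp2e1, the main enzyme that activates acetaminophen, had ratios of -0.43 and -1.46 at 24 h, against 0.19 and 0.09 at 8 h, and its change of -1.09 ± 0.32 was not called (adjusted p = 0.106). Cyp1a2, another activating enzyme, changed by -2.07. Cyp2a4 rose by 1.74 ± 0.16 (adjusted p = 0.00139), a change that lay in both channels with 0.88 in treated and -0.86 in control livers; its treated part turned to -0.13 when the arrays' mean levels were median-centred. Of 21 glucuronidation and sulfation genes 9 were lower, among them Ugt2b36 at -1.84 and Papss2, which makes the sulfate donor, at -1.55, both in the treated channel. Of 36 carboxylesterase, aldo-keto reductase and other oxidation genes 16 were lower. Akr1c6, a steroid reductase, had ratios of -4.01 and -4.17 at 24 h, against -0.35 and -0.61 at 8 h, a change of -3.61 ± 0.47 (adjusted p = 0.00546) with the treated channel at -3.32. Members of these families have near-identical copies that a probe may share, so single members are uncertain.

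Secreted liver proteins, bile acid transport and energy metabolism moved the same way. Of 45 coagulation, complement and serpin genes 19 were lower (42.2%) and 1, Serpina7, was higher (2.22%), with a median change of -0.86. Over all genes 3.82% were lower and 2.47% higher. Of 39 bile acid genes 12 were lower, led by the uptake transporter Slco1b2 at -2.72 ± 0.39 (adjusted p = 0.00743), while Cyp7a1, which starts bile acid synthesis, was reduced at both times (-2.34 at 24 h and -2.47 at 8 h) with no called change. Of 73 respiratory chain and ATP synthase genes 33 were lower, with a median change of -0.67 and a median response of -0.92 at 24 h and -0.19 at 8 h. Atp5a1, an ATP synthase subunit, had ratios of -1.5 and -1.26 at 24 h, against 0.30 and 0.23 at 8 h, a change of -1.64 ± 0.13 (adjusted p = 0.00119) in the treated channel. Of 25 citric acid cycle genes 8 were lower, led by the malate dehydrogenase gene Mdh1 at -2.13. Of 29 fatty acid synthesis genes 9 were lower (31.0%), led by Thrsp at -3.22, and of 46 fatty acid oxidation genes 5 (10.9%). Of 26 cholesterol synthesis genes 6 were lower. The largest of those was Insig2, a brake on cholesterol synthesis and so no synthesis enzyme, at -3.71 ± 0.65 (adjusted p = 0.0155). The call of Insig2 was lost without 24 h array 1 or 8 h array 2. Without 8 h array 2, lower members numbered 7 in the coagulation list, 12 in the respiratory chain, 6 in bile acid, 3 in the citric acid cycle, 4 in fatty acid synthesis, 1 in fatty acid oxidation and 0 in cholesterol synthesis. Without 24 h array 3 they numbered 10 in coagulation, 21 in the respiratory chain, 7 in bile acid, 5 in the citric acid cycle, 1 in fatty acid oxidation and 1 in cholesterol synthesis. Bile acid genes numbered 7 and cholesterol and fatty acid oxidation genes 3 each without 8 h array 3, and 5 citric acid cycle and 2 fatty acid oxidation genes were lower without 24 h array 1. The call of Serpina7 was lost when any array but 24 h array 1 was left out.

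**Figure D3:**
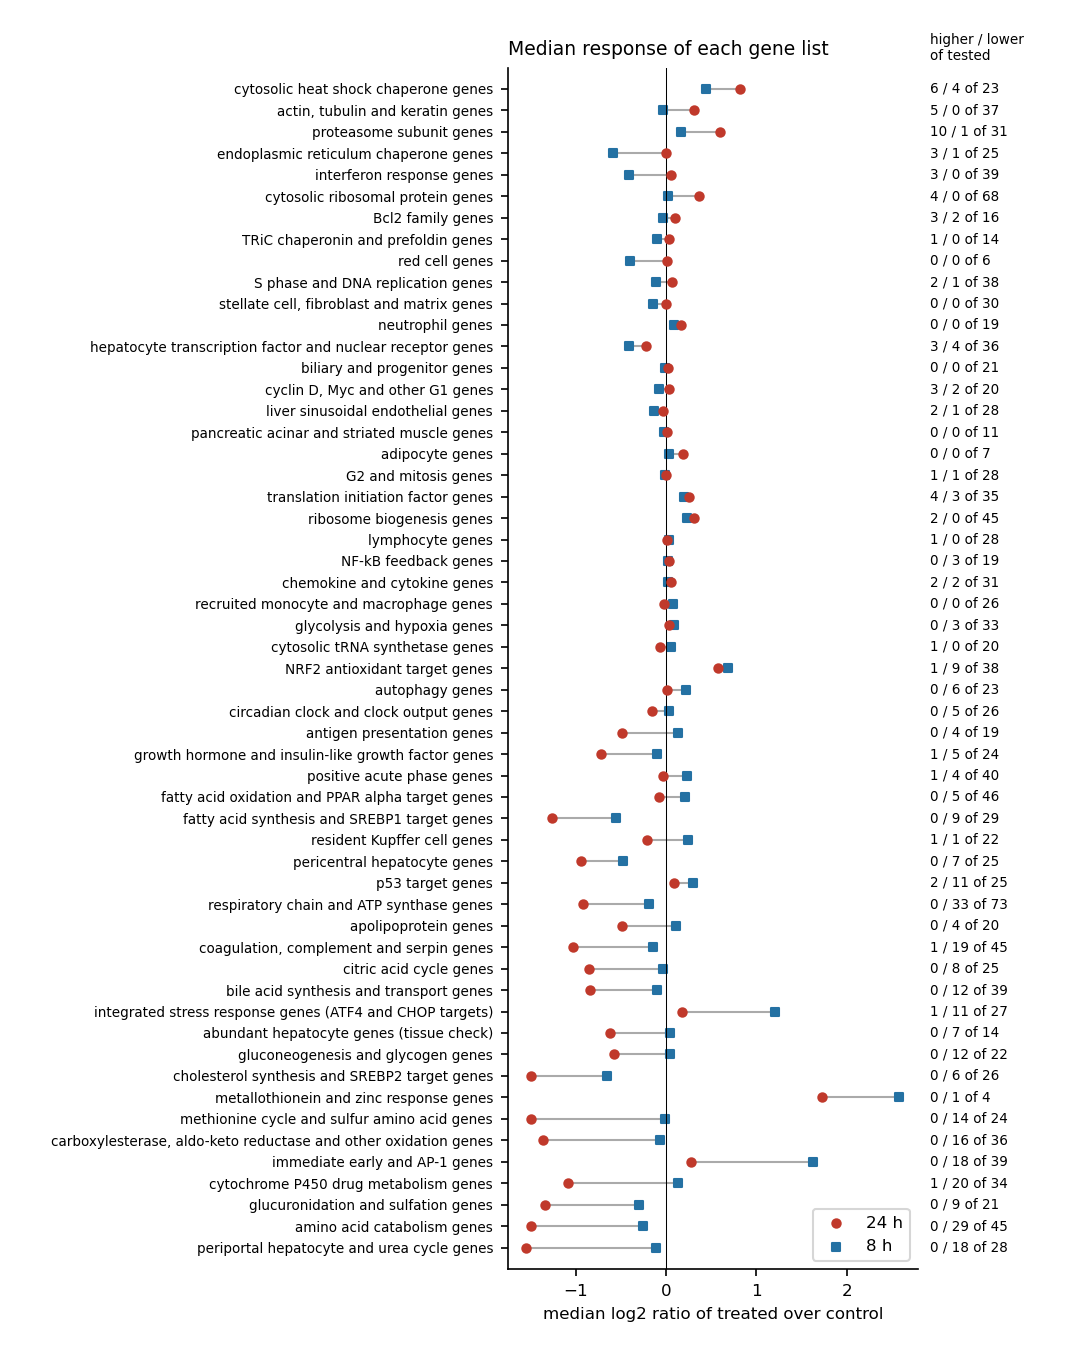
Median log2 ratio of treated over control in each of 55 gene lists at 24 h (red circles) and 8 h (blue squares), ordered by the median change. The numbers at the right give how many members were higher and how many lower at 24 h, of those tested. Immediate early genes stand at 0.28 and 1.63, and periportal genes at -1.55 and -0.11.

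Genes of the circadian clock and of growth hormone action, which time of day and feeding also move, were mixed. Of 26 clock genes 5 were lower at 24 h (19.2%, beside 3.82% of all genes). Nr1d1, a repressor of the clock loop, had ratios of -0.20 and -0.78 at 24 h, against 2.82 and 2.85 at 8 h, a change of -3.33 ± 0.30 (limma adjusted p = 0.00141) with -2.94 in the treated and 0.39 in the control channel. Its relative Nr1d2 changed by -1.73 in both channels, Nfil3 by -1.95, Cry2 by -1.15 and Bhlhe40 by -1.02 in the treated channel. The other 21, among them Arntl, Clock, Per1, Per2, Per3 and Dbp, had changes between -1.35 and 0.78 with no call. Of 24 growth hormone and insulin-like growth factor genes 5 were lower (20.8%) and 1 was higher (4.17%, beside 2.47% of all genes). Igf1, the main liver growth factor, had ratios of -1.54 and -1.75 at 24 h, against -0.56 and -0.54 at 8 h, a change of -1.09 ± 0.16 (adjusted p = 0.00822) in the treated channel; the change of its 5 probes ran between -1.22 and 0.08. Stat5b, which carries the growth hormone signal, changed by -1.07 and its receptor gene Ghr by -1.20. Prlr, the prolactin receptor, changed by 0.80 on 1 probe and -0.45 on the other, and turned to -0.07 under scaling between arrays. Lower clock genes numbered 2 without 8 h array 2 or 24 h array 3, and lower growth hormone genes 2 without 8 h array 2, 1 without 24 h array 3 and 3 without 8 h array 3. The calls of Igf1 and Prlr were lost without 8 h array 2 or 24 h array 3, and that of Prlr also without 8 h array 3. Those of Ghr and Bhlhe40 were lost when any array but 24 h array 1 was left out. Those of Nr1d2 and Cry2 were lost when any array but 8 h array 3 was left out. The call of Stat5b was lost without 8 h array 2, and its other probe, at -0.66, was not called.

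Further lists are given here beside 2.47% higher and 3.82% lower over all genes. Of 23 autophagy genes 6 were lower (26.1%). Among them were Ulk1, the starting kinase, at -2.20 in both channels, and Map1lc3b, a coat protein of autophagosomes, at -1.30 in the treated channel. Lower autophagy genes numbered 2 without 24 h array 3 and 3 without 8 h array 2. Of 20 apolipoprotein genes 4 were lower, of 33 glycolysis genes 3 and of 19 genes of NF-kB feedback 3. Of 36 liver transcription factor genes 3 were higher and 4 were lower. Foxa2, a pioneer factor of liver genes, had ratios of -0.16 and 0.15 at 24 h, against -1.68 and -1.38 at 8 h, a change of 1.53 ± 0.21 (limma adjusted p = 0.00585) in both channels. Esr1, the estrogen receptor, changed by 1.10 in the control channel on 1 of 4 probes, which ran between 0.09 and 1.10. Of 35 translation initiation genes 4 were higher and 3 lower, of 45 ribosome biogenesis genes 2 were higher, and of 20 tRNA synthetase genes and 14 chaperonin genes 1 each. Of the 14 abundant hepatocyte genes 7 were lower. Leaving out 8 h array 2, lower genes numbered 2 in the apolipoprotein list, 1 in glycolysis, 1 in NF-kB feedback, 0 among liver transcription factors and in translation initiation, and 1 among the abundant hepatocyte genes. Leaving out 24 h array 3, they numbered 2 in the apolipoprotein list, 1 among liver transcription factors, 0 in translation initiation and 2 among the abundant hepatocyte genes. Leaving out 8 h array 3, they numbered 2 in the apolipoprotein list, 1 in NF-kB feedback, 2 among liver transcription factors and 2 among the abundant hepatocyte genes. Translation initiation held 1 higher and 1 lower gene without 24 h array 1 and 2 higher genes without 8 h array 2. The single tRNA synthetase and chaperonin calls were each lost without 24 h array 3 or 8 h array 3, the first also without 8 h array 2 and the second without 24 h array 1, and ribosome biogenesis held 1 higher gene when any array but 24 h array 1 was left out.

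Rises were fewer than falls, and 29 of them reached 4-fold, beside 135 falls. Of 31 proteasome genes 10 were higher (32.3%) and 1 was lower (3.23%) at 24 h, beside 2.47% and 3.82% over all genes. The median change was 0.49, with a median response of 0.60 at 24 h and 0.16 at 8 h. All 11 changes lay in the treated channel. Psmd2, a subunit of the regulatory cap, had ratios of 1.21 and 0.86 at 24 h, against -0.43 and -0.37 at 8 h, a change of 1.44 ± 0.13 (limma adjusted p = 0.00138). Psmd4, a ubiquitin receptor of the proteasome, changed by 1.54 ± 0.23 (adjusted p = 0.00812), and Psmb7 by -0.76. Higher members numbered 4 without 24 h array 1, 2 without 8 h array 2, 6 without 24 h array 3 and 5 without 8 h array 3; the call of Psmd4 was lost without 8 h array 2 and that of Psmb7 without each of the 4 arrays in turn.

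Cytosolic heat shock genes split. Of 23 tested 6 were higher (26.1%) and 4 were lower (17.4%) at 24 h, beside 2.47% and 3.82% over all genes. The median response was 0.82 at 24 h and 0.45 at 8 h. Hsp90aa1, the inducible HSP90, had ratios of 3.53 and 2.40 at 24 h, against 1.15 and 0.77 at 8 h, a change of 2.01 ± 0.37 (adjusted p = 0.0195) with 1.36 in the treated and -0.64 in the control channel, and the call was lost without either 8 h array. Dnajb1, a cochaperone of HSP70, had ratios of 0.86 and 0.75 at 24 h, against 3.16 and 3.34 at 8 h, a change of -2.44 ± 0.43 (adjusted p = 0.0167) in the treated channel, a call lost without each of the 4 arrays in turn. The changes of Hsph1 and Hspa4l, 1.07 and 0.84, lay in the control channel, which was not itself called in either gene. The call of Hsph1 was lost when any array but 24 h array 1 was left out. Hspa4 changed by -0.91 on its brightest probe, but its 3 probes ran between -0.91 and 1.28 with 1 called each way, so no direction is given. Higher members numbered 2 without either 8 h array, and lower members 2 without 24 h array 1, 0 without 8 h array 2 or 24 h array 3 and 1 without 8 h array 3.

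Genes of the ribosome and the cytoskeleton are given here beside 2.47% higher and 3.82% lower over all genes. Of 68 ribosomal protein genes 4 were higher (5.88%), with a median change of 0.39. The treated channel rose in 23 of them and fell in 1, beside 5.15% higher and 5.19% lower over all genes. Rpsa had ratios of 1.31 and 0.70 at 24 h, against -0.45 and -0.26 at 8 h, a change of 1.36 ± 0.23 (adjusted p = 0.0148) that was lost without 24 h array 1 or 8 h array 2; of its 4 probes 2 were called, with changes between 0.14 and 1.68. The number of higher ribosomal protein genes ran between 0 and 12 without 1 array, with 0 without 24 h array 1 or 8 h array 2 and 12 without 24 h array 3. Of 37 actin, tubulin and keratin genes 5 were higher (13.5%). That number was 2 without 8 h array 2, 3 without 8 h array 3 and 11 without 24 h array 3. Without 24 h array 1 the median change of ribosomal protein genes was 0.17 and that of the cytoskeleton list was 0.12, beside 0.53 with all arrays. Tubb4b, a tubulin, had ratios of 2.41 and 1.72 at 24 h, against 0.59 and 0.18 at 8 h, a change of 1.68 ± 0.24 (adjusted p = 0.0076) in the treated channel. Tubb5 had ratios of 0.84 and 0.16 at 24 h, against -1.04 and -1.29 at 8 h, a change of 1.66 ± 0.21 (adjusted p = 0.00438). Of cell cycle genes, Odc1, the first enzyme of polyamine synthesis, rose by 1.86 ± 0.29 (adjusted p = 0.00972) in both channels, with 2 of 4 probes called and changes between 0.25 and 1.86, and the replication gene Fen1 by 1.23 in the treated channel. Myc was lower by -1.52 ± 0.26 (adjusted p = 0.0138), with the treated channel at -1.97. The call of Myc was lost without 24 h array 1, 8 h array 2 or 8 h array 3. Of 28 genes of G2 and mitosis 1 was higher and 1 was lower, or 3.57% each way, which is near the shares over all genes.

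A few genes came up in treated livers from below detection. In treated livers at 8 h their probes were not well above background on either array, so each rise is given as at least a fold. It is the mean normalised treated level at 24 h over the higher, per array, of the dimmest detected signal and the probe's own. In the 4 genes given here the probe's own level was the higher. Each fold is thus the plain ratio of mean levels, with the error of 2 arrays per time. Mmp3, a matrix metalloproteinase, was at least 7.08-fold higher in treated livers at 24 h than at 8 h (limma adjusted p of the treated channel = 0.00032). Its ratios were 1.56 and 3.14 at 24 h, against -0.02 and 0.01 at 8 h, and the change of response had an adjusted p of 0.0335. In the treated channel Acss1, which makes acetyl-CoA from acetate, was at least 6.89-fold higher (adjusted p = 0.000512), the predicted gene Gm10375 at least 13.3-fold (adjusted p = 9.58e-05) and Il1b, an inflammatory cytokine, at least 1.63-fold (adjusted p = 0.0184). The changes of response of all 4 genes were called and lay in the treated channel. Those of Mmp3, Acss1 and Il1b were lost without either 8 h array, and those of Mmp3 and Il1b also without 24 h array 3. Genes this dim in treated livers at 8 h could hardly fall, so it is no separate result that all 4 rose. Of the groups compared, only treated livers at 24 h had Mmp3 well above background on both arrays. Mmp3 may thus have passed the filter on dim probes because it was high there, which its p-values do not allow for. Acss1 and Il1b were well above background in control livers at both times, and Gm10375 at 24 h.

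Lists of inflammation genes are given here beside 2.47% higher and 3.82% lower over all genes. Ccl5, a chemokine that draws T cells, had ratios of 3.76 and 2.18 at 24 h, against -0.44 and 0.19 at 8 h, a change of 3.09 ± 0.71 (limma adjusted p = 0.0439) with 3.24 in the treated channel. Cxcl10, a chemokine induced by interferon, had ratios of 1.46 and 1.89 at 24 h, against 5.21 and 4.19 at 8 h, a change of -3.03 ± 0.37 (adjusted p = 0.00424) in the treated channel. The 2 chemokines thus went opposite ways. Cxcl1, which draws neutrophils, changed by -1.82 ± 0.36 (adjusted p = 0.0261) in both channels. Of 39 interferon response genes 3 were higher (7.69%), Isg15 by 2.20, Oasl1 by 1.85 and Stat2 by 1.12, in the treated channel. Of 19 antigen presentation genes 4 were lower (21.1%), led by H2-Q7 at -1.75 ± 0.20 (adjusted p = 0.00327). Of 40 acute phase genes 4 were lower and 1 was higher, and Saa1 was raised at both times, at 1.52 at 24 h and 1.84 at 8 h. The call of Ccl5 was lost without 24 h array 1, 8 h array 2 or 8 h array 3, and that of Cxcl1 when any array but 8 h array 3 was left out. Of the 3 interferon calls 0 were left without 24 h array 1 or 8 h array 2. Lower antigen presentation genes numbered 2 without 24 h array 3, and lower acute phase genes 2 without 8 h array 2.

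Markers of other cells did not pass the test in most lists. Over all genes 6.29% were called either way, so few or no calls in lists this short say little about these cells. Of 19 neutrophil genes tested, of a list of 25, none was called for the change in limma (3 higher and 1 lower at an unadjusted p under 0.05). Their mean log2 level was 8.94 and 8.95 in treated livers at 24 h and 8.30 and 8.24 at 8 h, and 8.33 and 8.59 in control livers at 24 h and 8.09 and 7.99 at 8 h. The treated channel rose in 5 of them, and 5 were not well above background in treated livers at 8 h. S100a9, a neutrophil calcium-binding protein, had ratios of 4.32 and 1.75 at 24 h, against 0.38 and 0.89 at 8 h, and its change of 2.41 ± 0.70 was not called (adjusted p = 0.0939). Both its channels were higher at 24 h, by 4.53 in treated livers (adjusted p = 0.000733) and by 2.12 in control livers (adjusted p = 0.0367). Likewise none was called for the change among 26 recruited macrophage genes (0 higher and 1 lower at an unadjusted p under 0.05), 30 stellate and matrix genes (2 and 3), 21 biliary genes (2 and 1), 6 red cell genes (0 and 0), 7 adipocyte genes (0 and 2) and 11 pancreas and muscle genes (0 and 0). Of 22 Kupffer cell genes 1 was higher and 1 lower, of 28 sinusoidal endothelial genes 2 and 1, and of 28 lymphocyte genes 1, Ccl5, was higher. Gpr182, a receptor of sinusoidal endothelium, had ratios of 0.68 and 0.53 at 24 h, against -1.97 and -1.18 at 8 h, a change of 2.18 ± 0.28 (adjusted p = 0.00519) in the treated channel. Hba-a1, a hemoglobin gene, had ratios of 2.72 and -0.18 at 24 h, against -1.14 and -0.18 at 8 h, with no called change. The part of these cells in the changes above was not tested.

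In 50 genes the called change lay in the control channel, that is, control livers carried at least 2/3 of it. In 18 of the 50 the control channel was itself called. Apcs, which encodes serum amyloid P, had log2 levels of 9.41 and 9.25 in treated livers at 24 h, against 8.95 and 9.16 at 8 h. In control livers it had 10.60 and 10.39 at 24 h, against 8.34 and 8.66 at 8 h. Its change of response was -1.72 ± 0.12 (limma adjusted p = 0.000791), with 2.00 in the control channel (adjusted p = 0.0137) and 0.27 in the treated channel. Csad, which makes taurine, had 9.56 and 9.28 in treated livers at 24 h, against 8.95 and 9.21 at 8 h, and 11.30 and 11.29 in control livers at 24 h, against 8.68 and 9.68 at 8 h. Its change was -1.78 ± 0.32 (adjusted p = 0.0181), with the control channel at 2.12 (adjusted p = 0.0388), and the call was lost without 8 h array 2 or 24 h array 3. Me1, malic enzyme, changed by -1.80 ± 0.20 (adjusted p = 0.00297), with 1.28 in the control channel, which was not itself called (adjusted p = 0.069). Ren2, a renin gene, rose in both channels, by 1.48 in treated and 3.11 in control livers, and its ratio changed by -1.64, a call lost without 8 h array 2 or 8 h array 3. Arrdc2 and the histone gene H3c15 changed by -1.61 and 1.92, with 1.14 and -1.34 in the control channel, neither called there.

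Ccnd1, the cyclin that drives hepatocytes out of rest, also moved in the control livers. Its ratio was 0.11 and 0.31 at 24 h, against -1.31 and -1.28 at 8 h, a change of 1.51 ± 0.21 (adjusted p = 0.00666). Treated livers had log2 levels of 8.94 and 9.65 at 24 h, against 9.51 and 10.42 at 8 h, while control livers had 8.83 and 9.34 at 24 h, against 10.83 and 11.70 at 8 h. The control channel was lower at 24 h by -2.18 (adjusted p = 0.0401), and the call of the change was lost without 8 h array 2. Sult3a1, a sulfotransferase, was higher in the control channel by 3.33 (adjusted p = 0.000956), and its change of response, -2.73 ± 0.95, was not called. Sult2a1, another sulfotransferase, had the treated channel lower by -6.36 (adjusted p = 0.00267) and the control channel by -4.24 (not called), and a change of response of -2.12 that was not called.

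**Figure D4:**
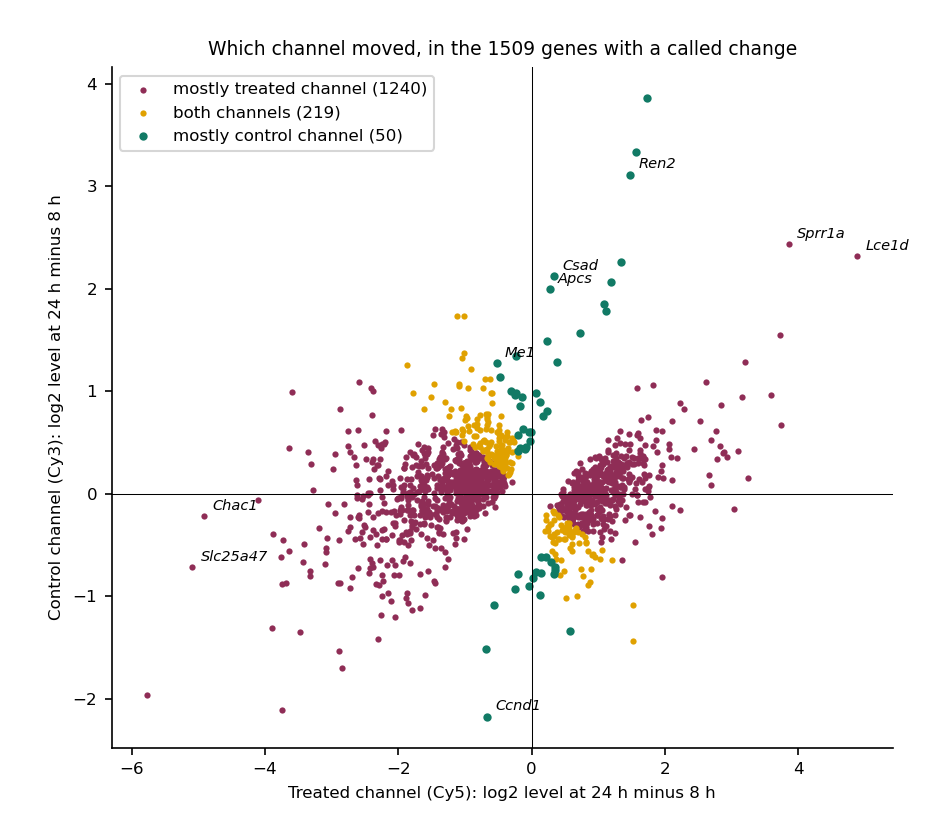
Treated-channel change (horizontal) against control-channel change (vertical), both as log2 level at 24 h minus 8 h, for the 1509 genes with a called change of response. Points in the treated class (1240) spread along the horizontal axis, and the control class (50) along the vertical one.

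**Figure D5:**
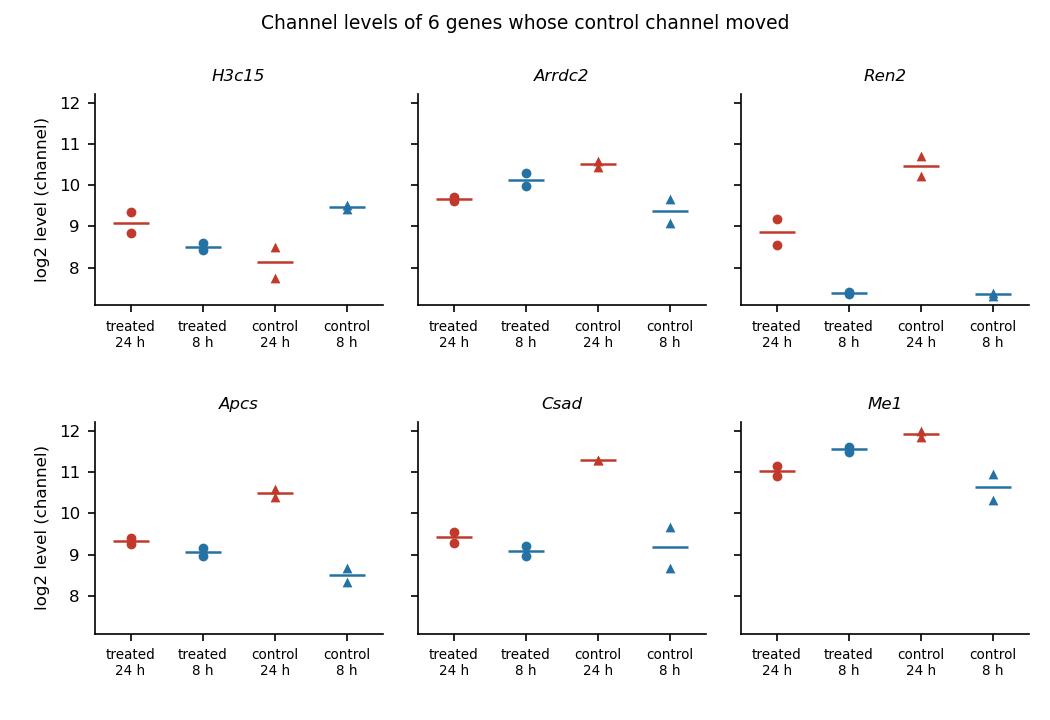
Log2 channel levels of the 6 genes with the largest changes that lay in the control channel, 1 point per array with a bar at the mean (circles treated, triangles control, red 24 h, blue 8 h). In Apcs and Csad the control points at 24 h, 10.39 to 11.30, lie above every other point of the same gene.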

How the data were processed

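Whole-liver RNA was hybridised to 2-colour Agilent mouse arrays, with treated RNA in Cy5 and control RNA in Cy3 on every array and no dye swap. Spot intensities and local backgrounds, and the log10 ratio of Cy5 over Cy3, are as Agilent Feature Extraction 10.7.3.1 wrote them, per the file headers; probe coordinates are on mm9. The deposited value table holds a score per probe that is proportional to the scanner log10 ratio, centred at 0 on each array, and its stated scale is unknown; it was used only as an alternative.

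Background was corrected with normexp (offset 50), arrays were normalised by loess within the array, and channel levels were quantile-normalised on the average intensity (limma 3.58.1 in R 4.3.3). Control spots, 2718 outlier spots and dim probes were left out, which kept 29587 of 39429 probes. The brightest kept probe stood for each of 23979 genes, 17597 of them with a current reference symbol and the rest with the name in the files. A single linear model fitted to the 10 arrays, with 1 mean ratio for each time point and 5 residual degrees of freedom, gave the change of response; channel levels were fitted likewise, with Benjamini-Hochberg adjustment over all genes at 0.05. All p-values in the text are limma's adjusted p unless called unadjusted, errors are standard errors, and n is 2 arrays per time. The script was tested on simulated data. The number of arrays limits the precision.

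The genes and lists were chosen with earlier results of these data known. Genes named are the 15 largest rises and 15 largest falls, up to 4 called members per list each way (the 2 largest changes where none is called), the 6 largest each way in each channel, the 6 largest that crossed 0 or lay in the control channel, and all metallothionein, clock and growth hormone genes; some of these are not reported here. Named outside this rule, after their values were seen, are Klf10, Jun, Csrnp1, Ier2, Dusp1, Ddit3, Ddit4, Gdf15, Hspa5, Hmox1, Srxn1, Asl, Arg1, Cyp2e1, Cyp1a2, Cyp7a1, Saa1, Agxt, Sult1a1 and Lor; leaving out single arrays was not run for these. Times share only treatment mouse number 3, and numbers do not mark the same animal across times, so no pairing was used. Exon and UTR positions of the probes were not used here.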

Additional observations from a re-analysis of the deposited data

Results flagged for a closer look

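Among genes called for the change of response (limma, adjusted over all genes), 139 had called responses of opposite sign at 24 and 8 h, and 5 with large changes are given here. The change was -4.38 in Slc25a47 (adjusted p = 0.000451), -3.67 in Coq8a (0.000854), -3.31 in Sds (0.000557) and -3.12 in Lpin1 (0.00269), each below control at 24 h and above it at 8 h on both arrays. It was 3.18 in Tardbp (0.000969), above control at 24 h and below it at 8 h on both arrays. Those of Coq8a, Lpin1 and Tardbp rest on 1 of their probes.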

How the results depend on the processing

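The count of called genes depended strongly on the processing, and the cause was not tested. Genes higher at 24 h numbered 592, against 330 with no normexp offset, 1104 with no background correction, 0 with median centring in place of loess, 10 with scaling between arrays, 0 with slide as a block, 148 with the treatment mouse number as a replicate block and 187 with only the 4 arrays. Genes lower at 24 h numbered 917, against 1781, 2, 10, 0, 386 and 487 with no background correction, median centring, scaling, slide block, replicate block and only 4 arrays. At an unadjusted p under 0.05 the change was called in 4869 genes, against 2393 with median centring, 3636 with scaling and 3629 with slide as a block, which left 2 residual degrees of freedom. Without 1 array, higher genes numbered 164 to 622 and lower genes 376 to 807, the fewest without 8 h array 2. With scan day as a block they numbered 656 and 978.

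The response at 24 h was called in 2615 genes, against 4870 with no background correction, 757 with median centring, 4219 with the software's ratio and also with the authors' deposited value table, 617 with scaling and 0 with slide as a block, and 1364 to 2502 without 1 array. At 8 h it was called in 3101 genes, against 544 with scaling, 202 with slide as a block, 33 with the replicate block, 1611 with only the 4 arrays, and 416 to 2929 without 1 array.

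In the treated channel, 1234 genes were higher and 1244 lower, against 0 and 0 with median centring of each array's mean level, 335 and 510 with slide as a block, and 330 to 658 and 509 to 1101 without 1 array. In the control channel, 102 were higher and 60 lower, against 0 and 0 with that centring, 33 and 6 with slide as a block, 220 and 136 with slide as a random block (chosen after seeing the data), and 27 to 53 and 8 to 30 without 1 array. With scan day as a block, 157 were higher in the control channel.

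Among called values of named genes, signs turned in 8 cases; medians of gene lists also turned in some settings, as given for the NRF2 and metallothionein lists, and under scaling that of liver transcription factors was -0.23, against 0.09. The change of Hspa4 was 0.36 as the mean of its probes, and under scaling that of Cdkn1a was 0.29 and that of Prlr -0.071. With median centring of the mean level, the treated channel was -0.23 in Cct5, -0.14 in Nr1h3, -0.076 in Rplp2 and -0.13 in Cyp2a4, and the control channel -0.022 in Ulk1. Of the 4 arrays, 51.0% to 75.3% of probes were well above background in the treated channel, the fewest on 24 h array 1.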

Other observations

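Genes of the cornified envelope, the protein shell of surface keratinocytes, were higher in several members, and this list was put together after their values were seen. Of 27 tested, 8 were higher at 24 h than at 8 h (29.6%, beside 2.47% of all genes) and 0 were lower. At an unadjusted p under 0.05 (limma) 0 were lower, and the median change was 0.52. In treated livers at 8 h, 7 of the 27 were not well above background and could hardly fall. The absence of falls is therefore no separate result. Lor had ratios of 3.38 and 3.48 at 24 h, against 1.37 and 1.67 at 8 h. Lce3c had ratios of 2.88 and 2.66 at 24 h, against 0.18 and 0.08 at 8 h, and Lce1d 2.44 and 2.89 at 24 h, against 0.17 and 0.02 at 8 h. All 8 changes lay in the treated channel, but the control channel was also higher at 24 h in 3 members of the list. Among them, Sprr1a rose by 2.43 in the control channel beside 3.86 in the treated channel. For Lce1d these values were 2.32 and 4.89, and for Lce3c 0.96 and 3.60. Lce1g and Sprr2i, dim at 8 h, were at least 8.65-fold and 7.36-fold higher in treated livers at 24 h than at 8 h. For Sprr2i this is the plain ratio of mean levels. The change of response of Sprr2i had a limma adjusted p of 0.0494. The calls of Lce1g and Sprr2i were each lost when any array but 24 h array 1 was left out. Of 7 other skin genes none was called in limma (1 higher and 0 lower at an unadjusted p under 0.05). The source of this signal was not tested.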
